A study of Arabidopsis thaliana with 14 samples.

Results

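The respiratory burst oxidase (RBOH) family of Arabidopsis thaliana was taken as 10 genes given by locus code, and 3 of the 10 had a probe set that the annotation of the ATH1 array assigns to 1 gene. These were AT1G19230 (probe set 256011_at), AT4G11230 (254912_at) and AT4G25090, known as RBOHG (254092_at). The other 7 genes, AT5G51060 (RHD2, also called RBOHC), AT5G47910 (RBOHD), AT1G64060 (RBOHF), AT5G07390 (RBOHA), AT1G09090 (RBOHB), AT5G60010 and AT3G45810, had no probe set named for them alone in the annotation used and were not analysed here. The array held 13513 probe sets with 1 named gene. The family was chosen by the signal of AT4G25090, which in an earlier analysis of the same arrays was higher in mock-treated than in untreated wild-type roots. That comparison is therefore given as a description for all members, and for AT4G25090 so is every comparison that uses the same Col-0 0 h or mock arrays.

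The 14 arrays fell into 7 groups of 2 biological replicates. The mutant slr-1 was sampled before NAA (0 h) and after 2 h and 6 h on it (10 µM), the wild type Col-0 at the same 3 times, and Col-0 also after 6 h of mock treatment. In slr-1 a mutated SLR/IAA14, an Aux/IAA repressor of auxin-responsive transcription, blocks the formation of lateral roots. All seedlings, the mock and 0 h groups included, had germinated on the auxin transport inhibitor NPA (10 µM) and were 3 days old when NAA, a synthetic auxin, was given. RNA came from the root segment between the meristem and the hypocotyl, pooled over about 1500 seedlings per time point, and no mock-treated slr-1 group was analysed here. In such whole segments fewer cells of a type and less RNA per cell cannot be told apart.

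RBOH proteins are plasma membrane NADPH oxidases. They carry electrons from NADPH in the cytosol to oxygen in the cell wall space, where the superoxide formed is turned into hydrogen peroxide, and they are switched on by calcium binding and by phosphorylation. In roots the family is best known for root hair growth, which needs RHD2, for the lignification of the Casparian strip, which needs RBOHF, and for the loosening of cell walls around emerging lateral root primordia. The 3 genes measured here are among the less studied members, and AT1G19230 and AT4G11230 are named by locus code because the gene table used gives them no symbol.

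Signals are MAS5 intensities in array units. The mean trimmed by 2% at each end was 1000.1 on every array, and the medians were 357 to 397. On slr-1 0 h replicate 2 the 3′ GAPDH probe set exceeded the 5′ one, with a ratio of 1.16, while the 13 remaining ratios were 0.546 to 0.742. The array slr-1 6 h NAA replicate 2 reached only 29349.7 as its highest signal, while the others reached 58837.1 to 124830.4. For the members, results that use either of these slr-1 arrays are given with and without it where its removal changes the call. For other genes arrays were left out only for calls against 0 h in Col-0 at 6 h or between genotypes at 6 h. Their other calls that use these slr-1 arrays were not checked in this way. Changes were estimated with limma on log2(signal + 18.9), where 18.9 is the 10th percentile of all signals, and 14882 probe sets were tested in which both arrays of at least 1 group exceeded a signal of 218.1. A change was called at a Benjamini-Hochberg adjusted p under 0.05 over all tested probe sets. Statements that arrays or groups did not overlap are descriptions only. With 2 arrays against 2 the smallest exact permutation p is 0.333, and the share of all probe sets without overlap was not computed.

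AT1G19230 exceeded 218.1 on all 14 arrays and rose with NAA in both genotypes. In slr-1 its signals (replicates 1 and 2) were 521.9 and 711.3 at 0 h, 1842.5 and 1416.4 at 2 h, and 1781.1 and 1806.0 at 6 h. In Col-0 they were 1109.6 and 984.7 at 0 h, 2771.1 and 2248.4 at 2 h, 2431.2 and 2820.6 at 6 h, and 718.8 and 784.2 after mock treatment. Within each genotype every array with NAA lay above every array without it. The gene rose at 2 h by 1.38 on the log2 scale in slr-1 (SE 0.18, limma adjusted p = 0.000256) and by 1.24 in Col-0 (SE 0.18, adjusted p = 0.000362). At 6 h it was higher than at 0 h by 1.53 in slr-1 (SE 0.18, adjusted p = 0.00018) and by 1.31 in Col-0 (SE 0.18, adjusted p = 4.88e-05). Between 2 h and 6 h of NAA the change was 0.15 in slr-1 (adjusted p = 0.751) and 0.07 in Col-0 (adjusted p = 0.806), and the arrays at 2 h and 6 h overlapped in both genotypes.

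Against mock treatment at the same time AT1G19230 was 1.78 higher on the log2 scale after 6 h of NAA in Col-0 (SE 0.18, adjusted p = 3.73e-06), with mean signals of 2626 ± 275 with NAA and 751.5 ± 46.2 with mock (SD, n = 2 each). Mock-treated Col-0 differed from Col-0 at 0 h by -0.47, with ranges that did not overlap, and this difference has no test. The response of slr-1 minus that of Col-0 was 0.14 at 2 h (SE 0.26, adjusted p = 0.85, 95% interval -0.42 to 0.70) and 0.22 at 6 h (SE 0.26, adjusted p = 0.569, 95% interval -0.34 to 0.78). These intervals leave room for a response in slr-1 that is somewhat smaller or larger than in Col-0.

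The level of AT1G19230 was lower in slr-1 than in Col-0 at each time, and the 2 genotypes did not overlap at any of them. The difference was -0.76 at 0 h (SE 0.18, adjusted p = 0.0158), -0.62 at 2 h (SE 0.18, adjusted p = 0.0618, not called, but 0.038 without slr-1 0 h replicate 2 and 0.0372 without replicate 1) and -0.54 at 6 h (SE 0.18, adjusted p = 0.0348). The call at 0 h was kept without slr-1 0 h replicate 2 (-0.98, adjusted p = 0.0132) but lost without slr-1 0 h replicate 1 (-0.54, adjusted p = 0.0874), without Col-0 0 h replicate 1 (-0.68, adjusted p = 0.0952) and without Col-0 0 h replicate 2 (-0.84, adjusted p = 0.0501). At 6 h the call was lost without any 1 of the 4 arrays compared, with adjusted p-values of 0.068 to 0.19, slr-1 6 h NAA replicate 2 giving 0.116. Ordered by mean signal, Col-0 at 6 h and 2 h of NAA overlapped each other at the top, slr-1 at 6 h and 2 h of NAA overlapped each other next, and Col-0 at 0 h, Col-0 mock and slr-1 at 0 h followed without overlap.

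**Figure D1:**
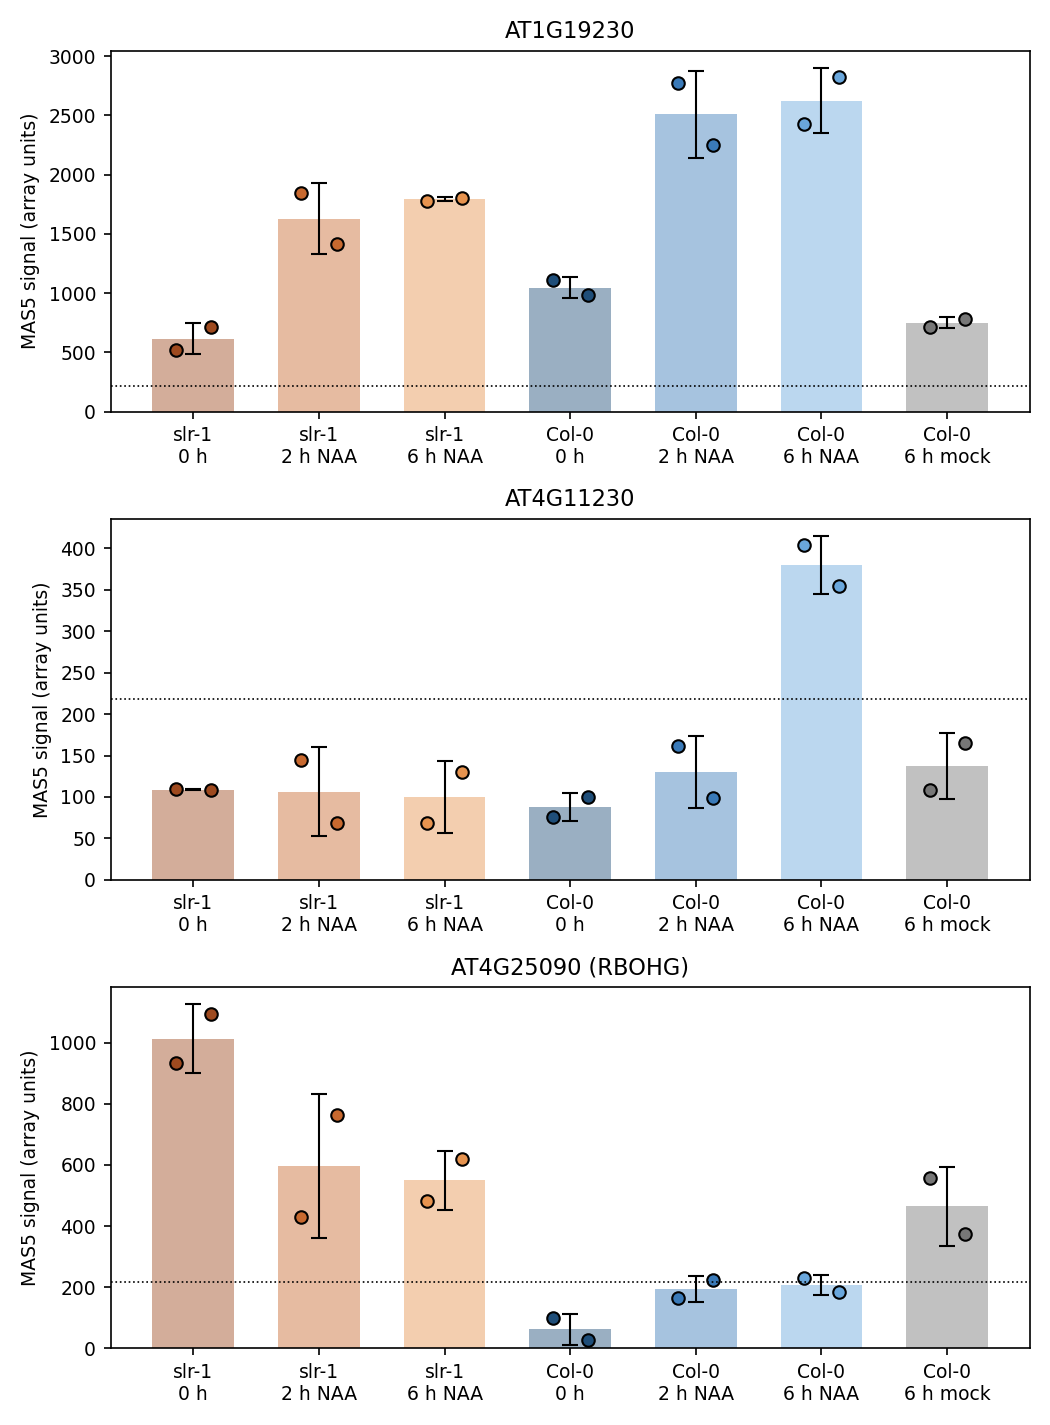
MAS5 signal (array units) of the 3 measured RBOH genes in each group, 1 panel per gene. Points are the 2 arrays, bars the mean, error bars the SD (n = 2), and the dotted line the signal of 218.1 used as filter. AT1G19230 is higher on all NAA arrays of its genotype, AT4G11230 stands above the line only in Col-0 at 6 h of NAA, and AT4G25090 is lowest in Col-0 at 0 h and highest in slr-1 at 0 h.

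AT4G11230 was high in 1 group only. In slr-1 its signals were 109.6 and 108.2 at 0 h, 144.2 and 68.9 at 2 h, and 68.8 and 130.1 at 6 h. In Col-0 they were 75.7 and 100.2 at 0 h, 161.0 and 99.0 at 2 h, 404.2 and 354.5 at 6 h, and 108.9 and 165.4 after mock treatment. Both Col-0 arrays at 6 h of NAA lay above all 12 others, whose highest signal was 165.4, and they alone exceeded the filter of 218.1. The gene thus passed the filter only because this group is high, and each of its calls below was also made with no filter, over all 22746 probe sets. The other 6 groups, from Col-0 mock at the top to Col-0 0 h at the bottom, overlapped their neighbours in the order of means. The rise was late: in Col-0 the gene rose between 2 h and 6 h of NAA by 1.45 (SE 0.45, adjusted p = 0.0237, and 0.0387 with no filter), while 2 h against 0 h gave 0.46 (SE 0.45, adjusted p = 0.544).

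At 6 h of NAA in Col-0 AT4G11230 was higher by 1.90 on the log2 scale than at 0 h (SE 0.45, adjusted p = 0.00302, and 0.00524 with no filter) and by 1.37 than in mock-treated roots (SE 0.45, adjusted p = 0.0225, and 0.0365 with no filter). Mean signals were 379 ± 35 with NAA, 137 ± 40 with mock and 87.9 ± 17.3 at 0 h (SD, n = 2 each). Mock-treated Col-0 differed from Col-0 at 0 h by 0.53, with ranges that did not overlap, and this difference has no test. In slr-1 the change was -0.09 at 2 h (SE 0.45, adjusted p = 0.924) and -0.16 at 6 h (SE 0.45, adjusted p = 0.854). The genotypes did not overlap at 6 h of NAA, where slr-1 differed from Col-0 by -1.80 (SE 0.45, adjusted p = 0.00733, and 0.0123 with no filter). At 2 h they overlapped in range (-0.28, adjusted p = 0.804). At 0 h slr-1 differed from Col-0 by 0.27 (adjusted p = 0.741, not called), with ranges that did not overlap either. The response at 6 h itself differed between slr-1 and Col-0 by -2.07 (SE 0.63, adjusted p = 0.0271, and 0.0446 with no filter).

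The rise of AT4G11230 over 0 h in Col-0 kept its call without any 1 array, and each of its other calls was lost without at least 1 array. The call against mock was lost without Col-0 6 h NAA replicate 1 (0.117 after adjustment), Col-0 6 h NAA replicate 2 (0.0653) or Col-0 mock replicate 1 (0.132). The call between 2 h and 6 h was lost without Col-0 6 h NAA replicate 1 (0.13), Col-0 6 h NAA replicate 2 (0.0713) or Col-0 2 h NAA replicate 2 (0.161). That between genotypes at 6 h was lost without Col-0 6 h NAA replicate 1 (0.0606) or slr-1 6 h NAA replicate 1 (0.0698), and was kept without slr-1 6 h NAA replicate 2 (-2.18, adjusted p = 0.014). The difference of response lost its call without Col-0 0 h replicate 1, either Col-0 6 h NAA array, slr-1 6 h NAA replicate 1 or slr-1 0 h replicate 2, the last with -2.07 and an adjusted p of 0.0534, and the adjusted p over these 5 reached 0.0999.

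AT4G25090 (RBOHG) had the reverse order of genotypes. In slr-1 its signals were 934.6 and 1093.1 at 0 h, 430.1 and 762.9 at 2 h, and 481.7 and 618.4 at 6 h. In Col-0 they were 97.6 and 25.6 at 0 h, 163.1 and 222.9 at 2 h, 229.6 and 182.6 at 6 h, and 556.4 and 372.4 after mock treatment. All 6 slr-1 arrays lay above all 6 Col-0 arrays of the same 3 times. The mock arrays of Col-0 lay within the range of the slr-1 arrays with NAA or below it. The signal exceeded 218.1 on 10 of 14 arrays, and the 2 Col-0 arrays at 0 h differed from each other by more than any other pair on the log2 scale (SD 0.98). Both arrays of a group exceeded 218.1 only in the slr-1 groups and Col-0 mock. The gene thus passed the filter only through groups in which it is high.

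With NAA present in both genotypes, comparisons that the choice of the gene did not use, AT4G25090 was higher in slr-1 than in Col-0. The difference was 1.50 on the log2 scale at 2 h (SE 0.41, adjusted p = 0.0427). At 6 h it was 1.34 (SE 0.41, adjusted p = 0.0211, and 0.0388 with no filter). Mean signals at 6 h were 550.0 ± 96.7 in slr-1 and 206 ± 33 in Col-0 (SD, n = 2 each). The call at 6 h was lost when replicate 1 of Col-0 6 h NAA was left out (1.49, adjusted p = 0.059), and likewise for replicate 2 of that group (1.18, adjusted p = 0.106) and replicate 2 of slr-1 6 h NAA (1.16, adjusted p = 0.13). The call at 2 h was lost without any 1 of 7 arrays: Col-0 2 h NAA replicate 1 (1.29, adjusted p = 0.27) or 2 (1.70, adjusted p = 0.0927), slr-1 2 h NAA replicate 2 (adjusted p = 0.325), and any array at 6 h of NAA (adjusted p = 0.0548 to 0.0591). It was also lost with no filter (0.078), with 1 in place of 18.9 (0.0798) and with no variance trend (0.0685). The change in slr-1 with NAA was -0.80 at 2 h (SE 0.41, adjusted p = 0.229) and -0.87 at 6 h (SE 0.41, adjusted p = 0.178), and neither was called. Every slr-1 array with NAA lay below both at 0 h, which is a description only. From 2 h to 6 h of NAA the change was -0.07 in slr-1 (adjusted p = 0.96) and 0.09 in Col-0 (adjusted p = 0.886).

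The remaining values of AT4G25090 describe the arrays that brought the gene to attention and carry no test. Col-0 mock was higher than Col-0 at 0 h by 2.72 (SE 0.41), with mean signals of 464 ± 130 and 61.6 ± 50.9 (SD, n = 2 each). Col-0 at 6 h of NAA lay between them, 1.64 above 0 h and with a difference of -1.08 from mock, and Col-0 at 2 h of NAA was higher than 0 h by 1.54. At 0 h slr-1 was higher than Col-0 by 3.84. The slr-1 response minus the Col-0 response was -2.34 at 2 h and -2.50 at 6 h, since the signal was lower with NAA than at 0 h on every slr-1 array and higher on every Col-0 array. All of these but the comparison with mock rest on the Col-0 0 h arrays. Without Col-0 0 h replicate 2 the excess of mock over 0 h was 2.03, and without replicate 1 it was 3.41. Leaving out replicate 2 and then replicate 1 in the same way gave 0.85 and 2.24 for 2 h of NAA and 0.94 and 2.33 for 6 h of NAA against 0 h. The difference of response became -1.65 and -3.03 at 2 h, and -1.81 and -3.20 at 6 h.

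**Figure D2:**
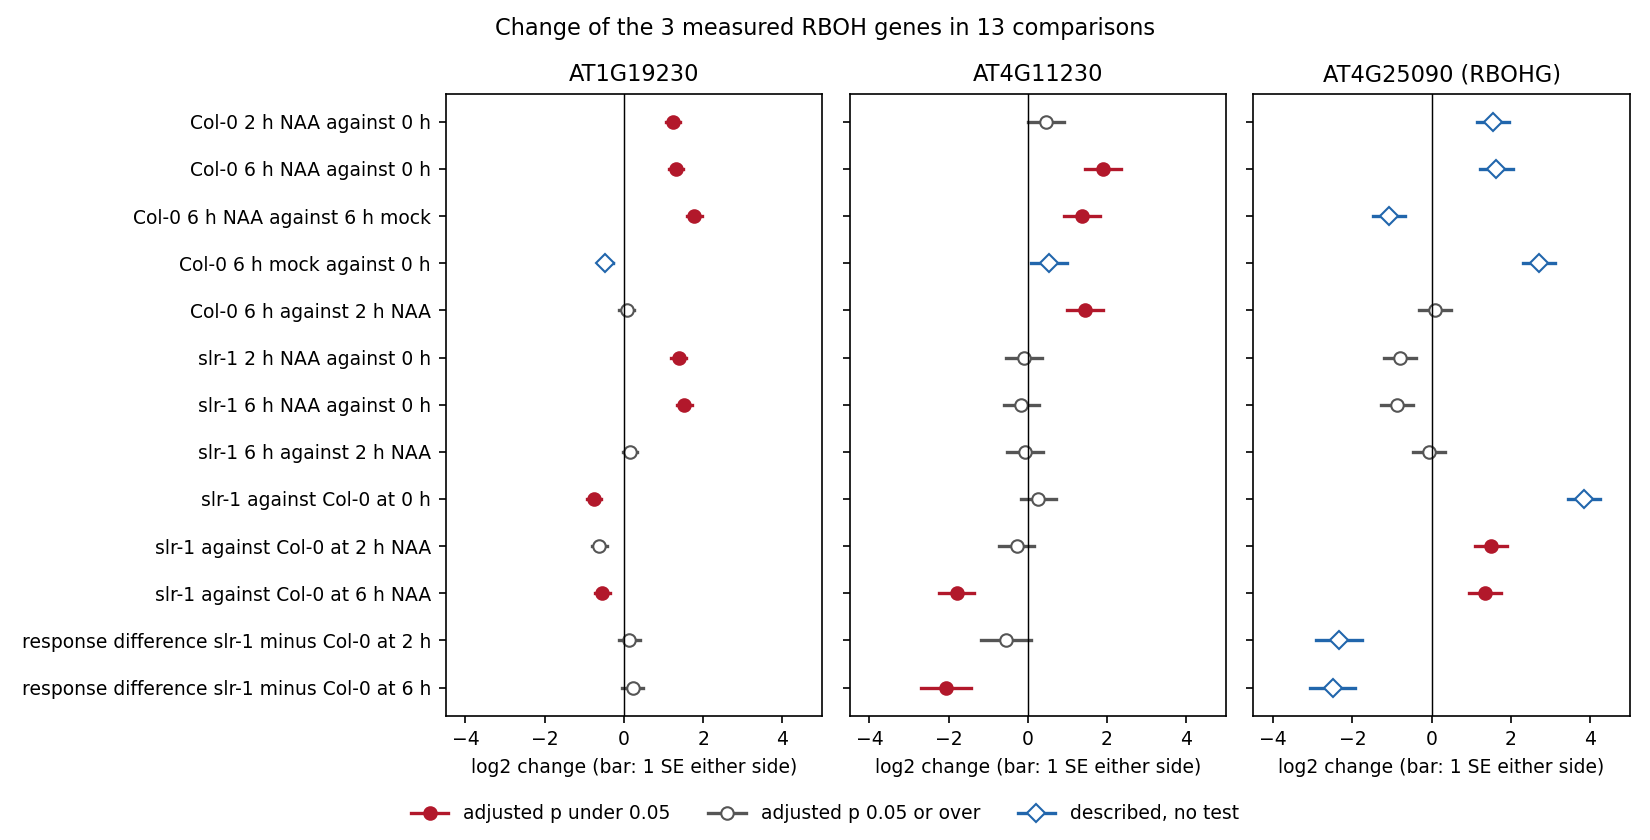
Log2 change (horizontal axis) of each measured RBOH gene in the 13 comparisons (vertical axis), with 1 SE either side. Filled red circles were called, open grey circles were not, and open blue diamonds are described without a test. AT1G19230 has calls to the right of 0 for NAA in both genotypes, AT4G11230 in Col-0 at 6 h only, and AT4G25090 has its calls in slr-1 against Col-0 with NAA.

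Set against all tested probe sets, the members' counts were small numbers beside broad responses. In Col-0 1 of 2 tested members was called at 2 h against 17.6% of all tested probe sets, 2 of 2 at 6 h against 48.5%, 2 of 2 in 6 h NAA against mock where 45.4% were called, and 1 of 3 between 2 h and 6 h where 33.1% were called. In slr-1 1 of 3 was called at 2 h against 12.3% of all, 1 of 3 at 6 h against 14.2%, and 0 of 3 between 2 h and 6 h against 1.22%, where no member had an unadjusted p under 0.05. Between slr-1 and Col-0 1 of 2 was called at 0 h against 13.4% of all, 1 of 3 at 2 h against 6.38%, and 3 of 3 at 6 h against 34.6%. The difference of response was called for 0 of 2 at 2 h against 3.18% of all, again with no unadjusted p under 0.05, and for 1 of 2 at 6 h against 27.5%. In mock against 0 h 5.08% of all tested probe sets were called, and no member was tested. Over all tested probe sets the median change was -0.11 in Col-0 at 6 h of NAA, 0.10 between slr-1 and Col-0 at 6 h and 0.10 for the difference of response at 6 h, all small beside the changes of AT4G11230. Since AT4G11230 and AT4G25090 entered the test only through groups in which they are high, nothing is read from these counts of members.

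The 3 members did not share a pattern across the arrays. Pearson's r of log2 signal over the 14 arrays, which share their groups, was 0.45 between AT1G19230 and AT4G11230, -0.32 between AT4G25090 and AT1G19230, and -0.17 between AT4G25090 and AT4G11230. Among the other 8085 tested probe sets with 1 gene, the pattern most like that of AT1G19230 was AT1G59740, a member of the NPF transporter family (r = 0.97), followed by AT3G06410 (0.95) and Phox4 (AT4G32070, 0.94). AT1G59740 had signals of 2672 and 3271 in slr-1 at 6 h of NAA, against 445.2 and 456.4 at 0 h. In Col-0 it had 6322 and 6424 at 6 h of NAA, against 558.7 and 592.5 in mock-treated roots. For AT4G11230 the most alike were AT1G27880 (r = 0.93), AT2G44510 (0.92) and AT1G30240 (0.91). Spearman's rho, which uses ranks only, was 0.88, 0.76 and 0.61 in the same order. Only the Col-0 arrays at 6 h of NAA stood apart for AT4G11230, so these values say little about the other arrays. AT1G27880 was at 453.5 and 621.5 in Col-0 at 6 h of NAA and at 211.6 or below on every other array. For AT4G25090 they were AT5G66120 (0.92), MDAR2 (AT5G03630, 0.92), which recycles ascorbate, and XEG113 (AT2G35610, 0.91), an arabinosyltransferase of cell wall glycoproteins.

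Of the genes beside the members in the gene table, 3 were measured by a one-gene probe set. TOPP7 (AT4G11240), a protein phosphatase gene next to AT4G11230, also stood highest in Col-0 at 6 h of NAA, with signals of 3213.2 and 2984.0, against 1448.6 and 1525.7 in slr-1 at the same time and 1568.3 and 1556.4 in mock-treated Col-0. It rose over 0 h by 0.81 in Col-0 (SE 0.14, adjusted p = 0.000336), the change in slr-1 was -0.25 (adjusted p = 0.276), and the responses differed by -1.05 (SE 0.20, adjusted p = 0.00168). AT1G19240, next to AT1G19230, had no called change with NAA against 0 h in either genotype, with 0.20 in Col-0 (adjusted p = 0.357) and -0.27 in slr-1 (adjusted p = 0.322) at 6 h. CHLM (AT4G25080), a chlorophyll synthesis enzyme gene next to AT4G25090, fell by 2.81 in Col-0 (SE 0.17, adjusted p = 3.02e-08) and by 1.25 in slr-1 (SE 0.17, adjusted p = 0.000479) at 6 h.

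Genes that act with the RBOH enzymes were sparsely covered, with 26 of 162 listed genes having a one-gene probe set and 23 of them tested. The RBOH regulators, among them kinases and receptor kinases, had 5 tested genes of 34. In Col-0 at 6 h of NAA 4 of the 5 fell and none rose (median -0.70), where 26.3% of all tested probe sets fell and 22.3% rose. Against mock treatment 1 of the 5 was called, lower (median -0.34), where 24.8% of all fell. Among them were SRC2, a membrane protein reported to activate RBOHF (-0.96, SE 0.21, adjusted p = 0.00163), the kinase PBL13, a negative regulator of RBOHD (-0.70, SE 0.19, adjusted p = 0.00678), and the receptor kinase FERONIA (FER, -0.48, SE 0.16, adjusted p = 0.0268). Against mock SRC2 differed by -0.35 (adjusted p = 0.189), PBL13 by -0.34 (adjusted p = 0.156) and FER by -0.30 (adjusted p = 0.151). Leaving out 1 array moved the change of SRC2 over 0 h to between -1.36 and -0.55, both extremes coming from the Col-0 0 h arrays. PBL13 lost the call without Col-0 6 h NAA replicate 1, and FER without any 1 of the 4 arrays compared. SRC2 had signals of 3829.6 and 3736.6 at 6 h of NAA, against 5532.4 and 9771.8 at 0 h and 4849.0 and 4775.1 with mock. BIK1, a kinase that phosphorylates RBOHD, was the member of the list called in mock against 0 h (0.52, SE 0.13, adjusted p = 0.0359). There 2.98% of all tested probe sets were higher, and the call of BIK1 was lost without any 1 of the 8 Col-0 arrays. In slr-1 against Col-0 at 6 h of NAA 1 of 5, PBL13, was called (0.75, SE 0.19, adjusted p = 0.00766), where 19.4% of all were higher. The call of PBL13 was lost without Col-0 6 h NAA replicate 1 or slr-1 6 h NAA replicate 2.

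Of the enzymes that remove hydrogen peroxide, 5 of 18 genes of the ascorbate-glutathione cycle were tested, and 2 of the 5 rose in Col-0 at 6 h of NAA (median 0.37), where 22.3% of all tested probe sets rose. In slr-1 2 of the 5 rose at 6 h (median 0.60, 7.96% of all), and against mock 1 of the 5 was higher in Col-0 (median -0.28, 20.6% of all). The stromal and mitochondrial ascorbate peroxidase SAPX rose over 0 h in Col-0 by 0.94 (SE 0.15, adjusted p = 0.00017). Its signals were 3861.5 and 4739.6 at 6 h of NAA, 2450.1 and 2022.0 at 0 h, and 3224.6 and 3021.4 with mock. Glutathione reductase GR1 rose by 0.54 (SE 0.19, adjusted p = 0.0298), a call lost without either Col-0 0 h array or Col-0 6 h NAA replicate 2. MDAR2 was the cycle gene called in mock against 0 h (0.65, SE 0.17, adjusted p = 0.0403), where 2.98% of all tested probe sets were higher. Its call was lost without either Col-0 0 h array, either Col-0 2 h NAA array or mock replicate 1. In slr-1 against Col-0 at 6 h of NAA none of the 5 was called, where 34.6% of all were. The only superoxide dismutase with a probe set of its own, MSD2, had signals of 37.0 to 168.7 and was not tested, and catalases, glutathione peroxidase-like genes and ferric reductase oxidases had none named.

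Among regulators of lateral root formation and their redox partners 6 of 16 genes were tested. In Col-0 at 6 h of NAA 4 of the 6 rose (median 2.27), where 22.3% of all tested probe sets rose. Against mock treatment 3 of the 6 were higher and 1 was lower (median 2.26), where 20.6% of all were higher and 24.8% lower. The list was drawn up with earlier results of these arrays known, so nothing is read from its counts. The transcription factor genes LBD29 (6.74), PUCHI (6.64) and LBD16 (3.66), which act in lateral root initiation, rose with adjusted p-values of 2.39e-08 or less, and the peroxidase gene PRX57 rose by 0.88 (SE 0.23, adjusted p = 0.0057). PRX57 lost the call without Col-0 0 h replicate 2. Its signals were much the same with NAA (7580.8 and 7059.3) and with mock (7509.1 and 6946.8) at 6 h. Between slr-1 and Col-0 at 6 h of NAA these 4 were lower, as were 15.1% of all tested probe sets, with differences of -2.50 for LBD29, -5.15 for PUCHI, -2.79 for LBD16 and -0.97 for PRX57 (SE 0.23, adjusted p = 0.00529). In mock against 0 h PRX57 (0.87, adjusted p = 0.0461) and PRX39 (1.84, adjusted p = 0.0492), a peroxidase gene of the root, were called. There 2.98% of all tested probe sets were higher. PRX57 lost this call without any 1 of 11 arrays and PRX39 without any 1 of 12. From the list of hydrogen peroxide, touch and wound responsive genes ZAT10 was the 1 tested gene of 13. It rose in Col-0 at 2 h of NAA (1.01, adjusted p = 0.00265), fell between 2 h and 6 h (-0.69, adjusted p = 0.0147) and was not called at 6 h against 0 h (0.32, adjusted p = 0.193). At 2 h it was lower in slr-1 than in Col-0 (-0.74, adjusted p = 0.0361), and the difference of response was not called (-0.94, adjusted p = 0.0844).

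**Figure D3:**
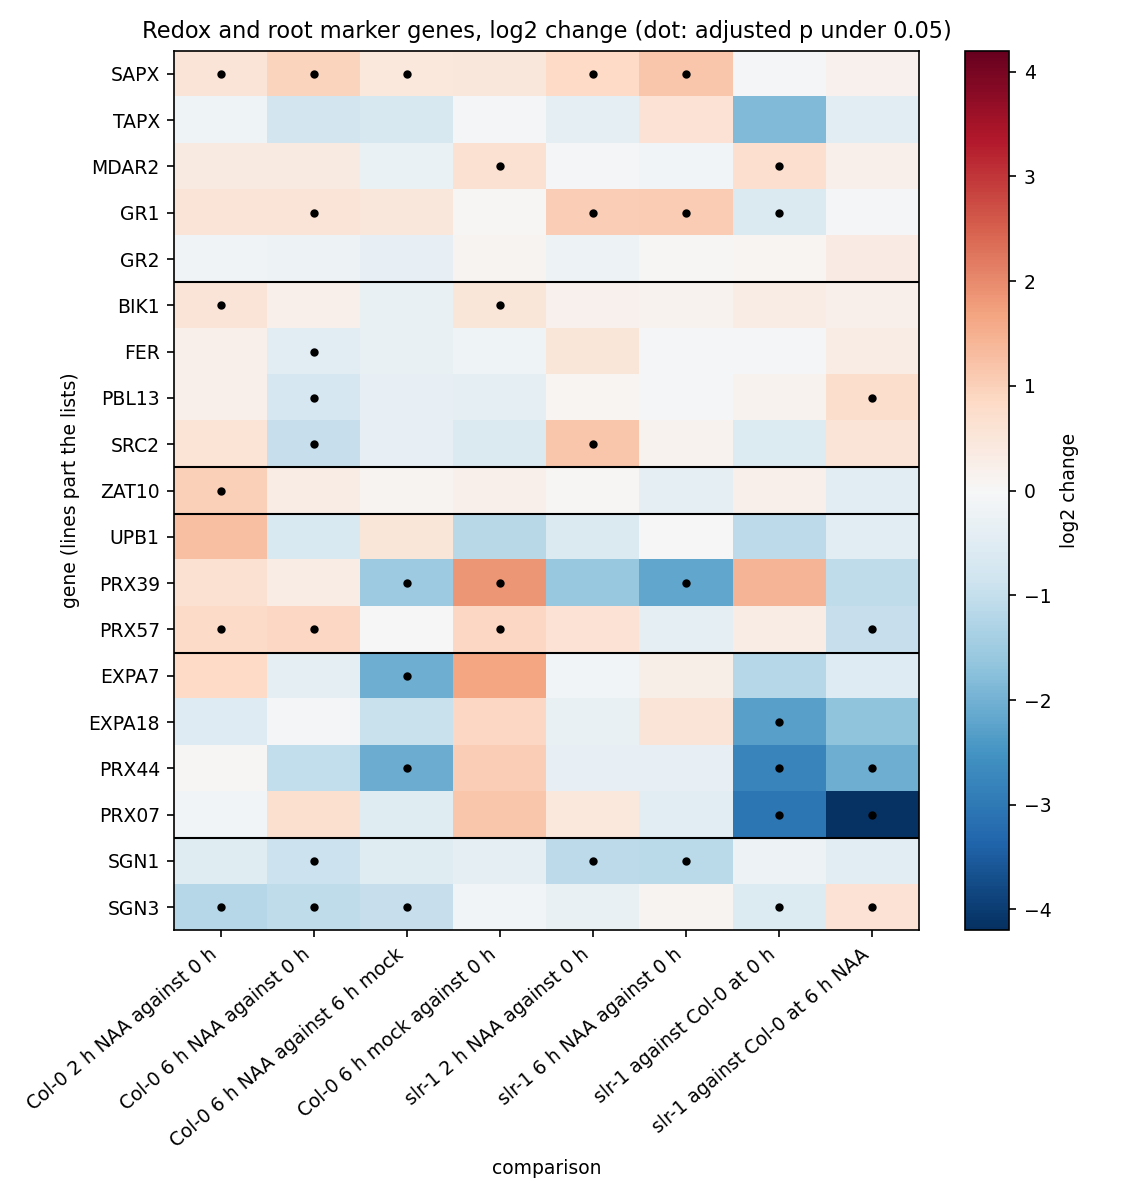
Log2 change (colour) of tested redox and root marker genes (vertical axis, lists parted by lines) in 8 comparisons (horizontal axis). Dots mark an adjusted p under 0.05, and LBD16, LBD29 and PUCHI, with changes up to 6.74, are left out to keep the colour scale. A tested RBOH regulator that is not reported here is also left out. The regulators of RBOH enzymes shown are blue in Col-0 at 6 h of NAA except BIK1, and the root hair genes are blue in slr-1 against Col-0.

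Root hair genes are given beside the members because RBOH enzymes act in root hair cells. Like the other lists, theirs was drawn up with earlier results of these arrays known, so nothing is read from its counts. The 4 root hair genes with a probe set, PRX07, PRX44, EXPA7 and EXPA18, of 21 listed, had a summed signal of 269.7 to 558.8 on the 6 slr-1 arrays and of 1301.4 to 5769.0 on the 8 Col-0 arrays, and none was at 0. At 0 h 3 of the 4 were called lower in slr-1 than in Col-0 (median -2.52, against 0.01 over all tested probe sets, of which 6.77% were lower). At 2 h 2 of the 4 were lower (median -2.31, 3.7% of all), and at 6 h 2 of the 4 (median -1.86, 15.1% of all). The peroxidase gene PRX07 was at 47.0 and 55.0 in slr-1 at 6 h of NAA, against 2161.4 and 681.8 in Col-0 (-4.15, SE 0.61, adjusted p = 0.000188). PRX44 differed by -2.04 (adjusted p = 0.0212), a call lost without Col-0 6 h NAA replicate 1 or either slr-1 6 h NAA array. Within Col-0 the summed signal was 5559.1 and 5769.0 with mock, against 1743.2 to 3917.6 at 0 h. It was 1521.6 to 4409.8 at 2 h of NAA and 1301.4 to 4107.3 at 6 h. In mock against 0 h 0 of the 4 were called, where 5.08% of all tested probe sets were. At 6 h of NAA against mock 2 of the 4 were lower (median -1.50, 24.8% of all). The summed signal was lower in slr-1 than in Col-0, the direction of AT1G19230 and opposite to that of AT4G25090. The part of root hair cells in either result was not tested.

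Of 12 endodermis and Casparian strip genes, 2 were measured. The receptor kinase gene SGN3 fell in Col-0 at 6 h of NAA by 1.07 (SE 0.18, adjusted p = 0.000197) and the kinase gene SGN1 by 0.89 (SE 0.21, adjusted p = 0.00325). Of all tested probe sets 26.3% fell. Against mock treatment 1 of the 2 was lower (median -0.73), where 24.8% of all were lower. In slr-1 against Col-0 at 6 h SGN3 was higher by 0.61 (adjusted p = 0.0162), where 19.4% of all were higher. The call of SGN3 between genotypes was lost without Col-0 6 h NAA replicate 1 or slr-1 6 h NAA replicate 2. Their summed signal was 3342.6 to 4010.6 in slr-1 and 3552.9 to 4161.7 in Col-0 at 6 h of NAA, and its part in the results on the members was not tested. Lists for non-hair epidermis, vascular tissue, root cap and meristem, and shoot had no gene with a probe set of its own, so that the labelled root segment could be checked against root hair and endodermis genes only.

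**Figure D4:**
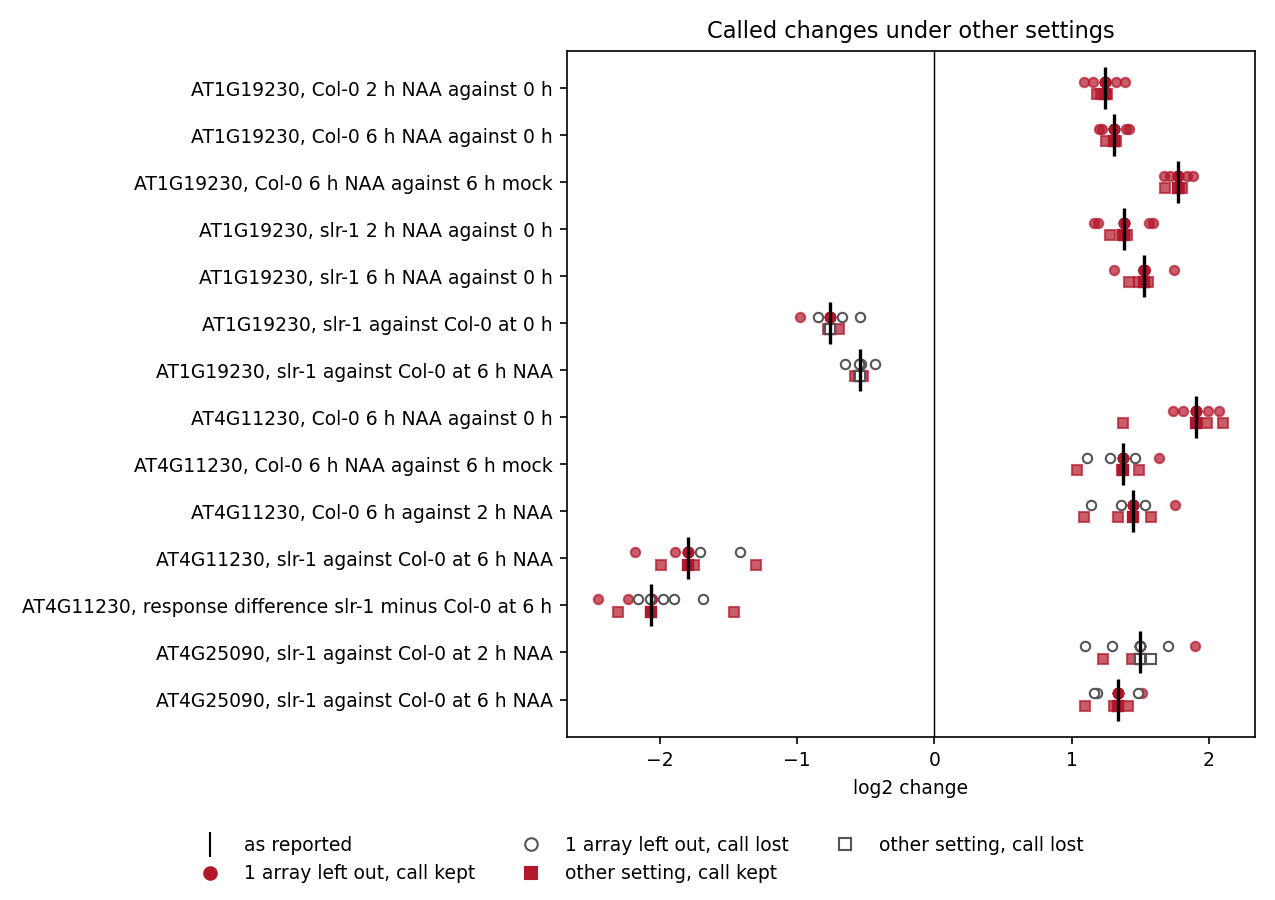
Log2 change (horizontal axis) of the 14 called changes of the members (vertical axis) as reported (bar) and under other settings. Circles leave out 1 array, squares change another setting, and open grey symbols lost the call. The 5 calls of AT1G19230 with NAA stay filled throughout, and each call between genotypes has open symbols.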

How the data were processed

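Root segments of slr-1 and Col-0 were profiled on ATH1 arrays. The deposited values are signal intensities that the authors made with MAS5, per the submitters' processing notes. The software's settings are not given in the sources used here. Detection calls played no part. Because the descriptions of the 2 mock samples speak of another organism's tissue, these samples were grouped by title, source name and protocol. Each group holds 2 biological replicates per the series' design text, and their number limits the precision.

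Of 22810 probe sets, 64 controls were left out. Of the other 22746, 13513 had 1 gene in the annotation table, 503 several and 8730 none, and 13436 of the 13513 matched a RefSeq gene. Tested were 14882 probe sets with all arrays of at least 1 group above the pooled 40th percentile (218.1), 8086 of them with 1 gene. Signals were transformed as log2(signal + 18.9), which understates the change of low genes. All 14 arrays entered 1 linear model of group means, with limma 3.58.1 in R 4.3.3 (7 residual and 6.57 prior degrees of freedom, variance trend) and tested on simulated data. With 2 arrays against 2, the smallest exact permutation p is 0.333, so no permutation test was run. No genome or sequence was used, and no position is given because the files name no build.

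The members and the gene lists were chosen with earlier results of these data known. All members with a probe set of their own are named. Of each list up to 4 genes per comparison are named, those called with the largest change in Col-0 6 h NAA against 0 h, mock against 0 h or slr-1 against Col-0 at 6 h, or the brightest where none was called. The 3 probe sets with the highest Pearson r to each member, and the gene on either side of it, are named too. The result of 1 RBOH regulator that this rule names is not reported here. Alternatives were another value added before log2, no or a stricter filter, quantile normalization, only the groups compared, the replicate number as a block, no variance trend, array weights and leaving out each array.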

Additional observations from a re-analysis of the deposited data

Results flagged for a closer look

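The response of AT4G11230 to 6 h of NAA differed between the genotypes by -2.07 (slr-1 minus Col-0, log2 scale, limma adjusted p = 0.0271, and 0.0446 with no filter), with changes over 0 h of -0.16 in slr-1 and 1.90 in Col-0. The gene passed the filter only through the Col-0 6 h NAA arrays. Against 0 h, AT4G25090 was lower on every slr-1 array with NAA and higher on every Col-0 array with NAA. This gave differences of response of -2.34 at 2 h and -2.50 at 6 h. The changes in slr-1 were not called (limma adjusted p = 0.229 at 2 h and 0.178 at 6 h). Against mock treatment at the same time, Col-0 at 6 h of NAA differed by -1.08, and no mock-treated slr-1 group was analysed here. The differences of AT4G25090 were not tested, because they use the Col-0 0 h arrays through which the gene came to attention.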

How the results depend on the processing

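Of 30 changes of members with a test, 14 were called and 6 of these kept the call under every alternative in which they were tested: AT1G19230 with NAA at 2 h and 6 h in both genotypes and against mock, and AT4G11230 in Col-0 at 6 h against 0 h. Of the 16 not called, 14 were called under no alternative. A filter at the 60th percentile removed AT4G11230, which left 1 called member in Col-0 at 6 h against 0 h, 1 against mock, 0 between 2 h and 6 h in Col-0 and 0 in the difference of response at 6 h. With only the groups compared, 2 members were called in slr-1 at 6 h, AT4G25090 being added (adjusted p = 0.0405), and 0 between slr-1 and Col-0 at 0 h (AT1G19230, adjusted p = 0.0835). Between slr-1 and Col-0 at 2 h the call of AT4G25090 was lost, leaving 0, with an added value of 1 (adjusted p = 0.0798), with no filter (0.078), with no variance trend (0.0685) and with the replicate block (0.055), while array weights gave 2 calls, AT1G19230 being added (0.0271). At 6 h AT1G19230 lost its call with no variance trend (0.0556).

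Leaving out 1 array at a time, with the lone array of a group assumed to vary like the other groups, moved the number of called members to between 1 and 2 against mock, 0 and 1 between 2 h and 6 h in Col-0, 0 and 1 between the genotypes at 0 h, 0 and 2 at 2 h, 0 and 3 at 6 h, and 0 and 1 in the difference of response at 6 h. Uncalled changes near 0 turned sign. Quantile normalization gave -0.027 for AT4G25090 between 2 h and 6 h in Col-0 and 0.033 for AT4G11230 at 2 h in slr-1. Without 1 array the change between 2 h and 6 h ran in Col-0 from -0.11 to 0.30 for AT4G25090 and from -0.081 to 0.22 for AT1G19230, and in slr-1 from -0.47 to 0.33 for AT4G25090, from -0.038 to 0.34 for AT1G19230 and from -0.51 to 0.38 for AT4G11230. For AT4G11230 it ran from -0.54 to 0.35 at 2 h and from -0.54 to 0.22 at 6 h in slr-1, and from -0.73 to 0.16 between the genotypes at 2 h. The difference of response of AT1G19230 at 2 h ran from -0.078 to 0.35. Causes were not tested.

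The untested values of AT4G25090 depended on the value added before log2. With the 25th percentile (94.9) mock against 0 h was 1.86, the excess of slr-1 over Col-0 at 0 h was 2.86, and the differences of response were -1.63 at 2 h and -1.76 at 6 h. Over all tested probe sets the replicate numbers did not pair the arrays (21 pairs of groups, correlations of deviations -0.16 to 0.13). The replicate block changed no other call of a member. Single genes can still differ by replicate number. PRX07, PRX44, EXPA7 and EXPA18 were each higher in replicate 1 in Col-0 at 0 h and with NAA, though not all with mock. PRX44 had 2127.8 and 787.9 in replicates 1 and 2 at 0 h. Among the listed genes named above, GR1 lost its call with no filter, and the calls of MDAR2, BIK1, PRX57 and PRX39 in mock against 0 h were each lost under at least 2 settings besides leaving out arrays, PRX57 also with the replicate block.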
